A study of Mus musculus with 8 samples.

Results

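RING1B knockout (KO) mouse embryonic stem cells were compared with wild-type (WT) cells in Hi-C contact statistics. The comparison used the 2 KO and the 4 WT libraries, 6 of the 8 libraries of the series, as their genotype labels assign them. Its members were the 19 autosomes among 21 chromosomes and all pairs that they form with each other, together with the distance bins of contacts within chromosomes. WT cells were the feeder-free line E14tg2A (129/Ola; Ring1B+/+). KO cells were a Ring1B -/- line derived from it, so genotype and line cannot be told apart. The other 2 libraries, of a derived line homozygous for RING1B I53A, are not compared here, but entered the fits across chromosomes, pairs and bins to share the estimate of spread. All cells were grown on gelatin in medium with serum and LIF, the cytokine that keeps mouse embryonic stem cells undifferentiated. The labels number the libraries as biological replicates but do not name separate cultures, so p-values measure the spread between these libraries, which may be technical. The counts hold no gene-level values, so neither the stem cell state nor the deletion could be checked in them. RING1B is encoded by Rnf2 (ENSMUSG00000026484.7), at positions 153316536 to 153347953 of chromosome 1, minus strand, of the NCBIM37 assembly (mm9).

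RING1B is the catalytic E3 ligase subunit of Polycomb repressive complex 1, PRC1, which attaches ubiquitin to histone H2A. In embryonic stem cells PRC1 binds the promoters of silent developmental regulators such as the Hox genes, compacts chromatin there and brings distant bound sites together. Hi-C joins DNA ends that lie close together in crosslinked nuclei, here after cutting with DpnII, and counts the joined ends as read pairs. Each chromosome occupies a territory, so pairs between chromosomes (trans) relative to pairs within a chromosome (cis) are used as a proxy for how much territories meet. How much of this ratio is technical was not tested here. The decay of cis pairs with distance, P(s), measures the folding within them. Pairs between homologous copies count as cis, and a trans pair counts for both of its chromosomes, so the chromosomes are not independent of one another.

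The libraries differed in ways other than genotype. The KO libraries held 268942815 and 262828203 unique pairs, against 121369690 to 164477401 in WT. Pairs under 1 kb apart took 20.3% and 27.5% of unique pairs in KO and 37.0% to 44.9% in WT. Rescued pairs, in which a chimeric read was resolved to a single position, took 45.1% and 44.9% of uniquely placed pairs in KO. They took 43.1% and 47.2% in WT 3 and WT 4, but 25.6% and 25.95% in WT 1 and WT 2. The read ends of a chromosome were taken as a share of those of the autosomes other than 11 and 15. Each share was divided by its median over all libraries of the series, so the values compare libraries and are not copy numbers. On chromosome 11 the values were 1.47 and 1.48 in KO, against 0.955 to 1.01 in WT. On chromosome 15 they were 1.49 and 1.50 in WT 1 and WT 2 and 0.995 to 1.01 in the other libraries. Results are therefore also given without chromosomes 11 and 15.

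The KO libraries had a larger share of contacts between chromosomes than the WT libraries, and the trans/cis ratio was higher in both KO libraries on every autosome. Trans pairs made up 19.5%, 20.7%, 19.9% and 20.02% of the trans pairs and cis pairs of at least 1 kb in WT 1 to WT 4, and 21.8% and 22.6% in KO 1 and KO 2. Both KO libraries lay above all 4 WT libraries. The means were 20.01% ± 0.508 (SD, n = 4) and 22.2% ± 0.622 (SD, n = 2), a difference of 2.19 percentage points. That is larger than the spread between libraries (pooled SD 0.539 points). The exact permutation test (two-sided) gave p = 0.133, the smallest value that 2 libraries against 4 allow. With chromosomes 11 and 15 left out, the shares were 17.2%, 18.3%, 17.9% and 17.98% in WT and 19.1% and 19.9% in KO, and the difference was 1.66 points. With the WT libraries of high rescued share alone it was 2.26 points. It lay between 1.75 and 2.63 points when any 1 library was left out. The parts that depth and the share of short pairs play in the difference were not tested.

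The trans/cis ratio of a chromosome was its trans pairs per cis pair of at least 1 kb. Cis pairs are not split by both chromosome and distance, so the cis pairs of each chromosome were scaled by the library's share of cis pairs at 1 kb or more, 49.6% to 57.7% in WT and 75.4% and 67.1% in KO. Chromosome 1, the longest, had the lowest ratio in WT at 0.424, 0.461, 0.440 and 0.440, and reached 0.486 and 0.505 in KO. Chromosome 19, the shortest, had the highest, at 0.574, 0.613, 0.593 and 0.608 in WT and 0.675 and 0.732 in KO. In both chromosomes the KO libraries lay above every WT library. The same held for all 19 autosomes. The mean ratio was 10.3% (chromosome 11) to 18.01% (chromosome 15) higher in KO, with a median of 14.4%. Without pairs of chromosomes 11 and 15, both KO libraries lay above every WT library on 17 of 17 autosomes, and the mean was 9.75% to 14.9% higher, with a median of 11.9%.

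**Figure D1:**
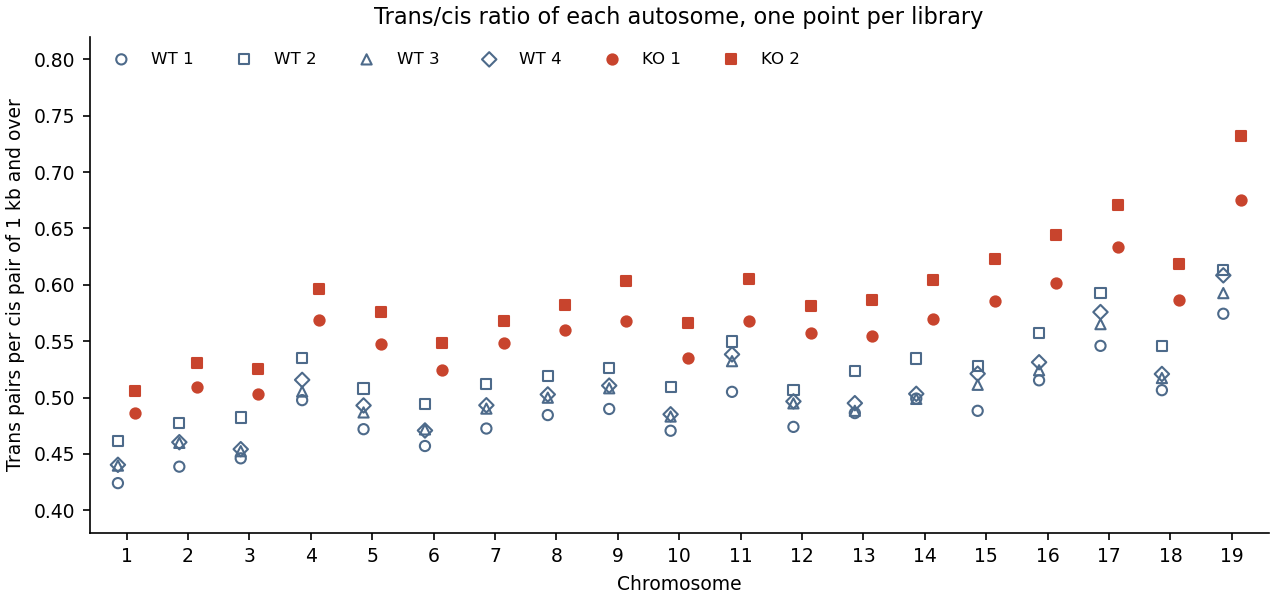
Trans pairs per cis pair of at least 1 kb (vertical axis) for each of the 19 autosomes (horizontal axis), with a point for each WT and KO library. The ratio is lowest on chromosome 1 and highest on chromosome 19 in both genotypes, and both KO points lie above all 4 WT points on every autosome.

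The median log2 trans/cis ratio over the autosomes was -1.04, -0.93, -1.003 and -0.99 in WT and -0.84 and -0.77 in KO. The group means, -0.99 ± 0.044 (SD, n = 4) and -0.80 ± 0.047 (SD, n = 2), differed by 0.19, more than the pooled SD of 0.045. The exact permutation test (two-sided) again gave its smallest p, 0.133. The difference was 0.17 without chromosomes 11 and 15. Shorter autosomes had higher ratios in each library, with Pearson's r between ratio and length of -0.87 to -0.91 over 19 autosomes, a description, since the autosomes of a library share its depth and their trans pairs.

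Few chromosomes departed from this common difference. Each ratio was divided by that of the library's median autosome, which removes the common level, and the relative ratios were tested with edgeR's quasi-likelihood test with Benjamini-Hochberg adjustment over chromosomes 1 to 19 and X. It called 3 of 20 chromosomes (15%), 2 higher (10%) and 1 lower (5%), with 5 at an unadjusted p under 0.05. Chromosomes 15 and 16 rose relative to the other autosomes and chromosome 11 fell. Counted by position, both KO libraries lay above all WT libraries on chromosomes 15, 16 and 18 and below them on chromosomes 1, 3 and 11, and the other 13 autosomes overlapped.

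Chromosome 11, gained in KO, had a relative log2 ratio of 0.055, 0.071, 0.094 and 0.098 in WT and 0.020 and 0.046 in KO. Both KO values lay below the lowest WT value. The fitted difference was -0.047 ± 0.011 (SE; edgeR adjusted p = 0.00086). The trans/cis ratio of chromosome 11 itself was still higher in KO, at 0.567 and 0.605 against 0.505, 0.550, 0.532 and 0.538. Without KO 1 the difference was -0.034 and the call was lost (edgeR adjusted p = 0.095), as it was with limma (adjusted p = 0.077).

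Chromosome 15, gained in WT 1 and WT 2, stood the other way. Its relative log2 ratio was 0.0059, 0.013, 0.036 and 0.052 in WT and 0.066 and 0.087 in KO, with the lowest values in the WT libraries that carry the gain. The fitted difference was 0.050 ± 0.011 (SE; edgeR adjusted p = 0.00086). Without WT 1 and WT 2 it was 0.033 and was not called (edgeR adjusted p = 0.063). With the libraries of high rescued share alone, which leaves out I53A 2 as well, it was again 0.033 but was called (edgeR adjusted p = 0.015). The call was lost with limma (adjusted p = 0.077) and with the share of short pairs as a covariate (edgeR adjusted p = 0.107).

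Chromosome 16 had no gain in either group relative to the median library. Its relative log2 ratio was 0.084, 0.090, 0.072 and 0.080 in WT and 0.104 and 0.136 in KO, and its trans/cis ratio was 0.515, 0.557, 0.524 and 0.531 in WT and 0.602 and 0.644 in KO. The fitted difference of 0.039 ± 0.014 (SE) passed narrowly (edgeR adjusted p = 0.0465) and lost the call in 10 of 19 alternatives. These included leaving out WT 1, WT 3 or WT 4, and limma (adjusted p = 0.087). With the share of short pairs as a covariate, the difference of chromosome 16 was 0.026 and was not called (edgeR adjusted p = 0.849). Without KO 2 it was 0.022. Chromosome 19 had a difference of similar size to the 0.039 of chromosome 16. It was 0.047 ± 0.026 (SE) and did not pass (edgeR adjusted p = 0.247). The long chromosomes 1 and 3 had differences of -0.020 ± 0.0096 and -0.023 ± 0.0093 (SE), which did not pass either (edgeR adjusted p = 0.179 and 0.076).

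Without chromosomes 11 and 15, edgeR called 0 of 18 chromosomes (0%), with 4 at an unadjusted p under 0.05 and a lowest adjusted p of 0.149. Limma and DESeq2 were not run on that set. Chromosome 16 kept its direction at 0.031 ± 0.012 (SE), with both KO libraries above all WT libraries. Chromosomes 1, 3 and 10 lay below. Over these 17 autosomes the relative difference ran from chromosome 3 at -0.032 to chromosome 19 at 0.033. Its correlation with length was r = -0.83 (Pearson) and rho = -0.82 (Spearman), and r = -0.73 without the 2 chromosomes farthest from the median length. With protein-coding genes per Mb it was r = 0.0050. Over all 19 autosomes, with pairs of chromosomes 11 and 15 counted, the correlation with length was r = -0.65 and rho = -0.69, and r = -0.53 without the 2 farthest. These are correlations across chromosomes that share libraries and trans pairs, and carry no test. The scaling to cis pairs of at least 1 kb is the same for every chromosome of a library. It therefore cancels in the relative ratio, which counts cis pairs under 1 kb too. The part that short pairs play in the relation with length was not tested. Without pairs of chromosomes 11 and 15, the differences of the 5 longest autosomes, 1 to 5, ran from -0.032 to -0.0017. Chromosomes 6, 7, 8, 10, 13 and 17 were below 0 as well. With pairs of chromosomes 11 and 15 counted, chromosome 5 stood at 0.0083.

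**Figure D2:**
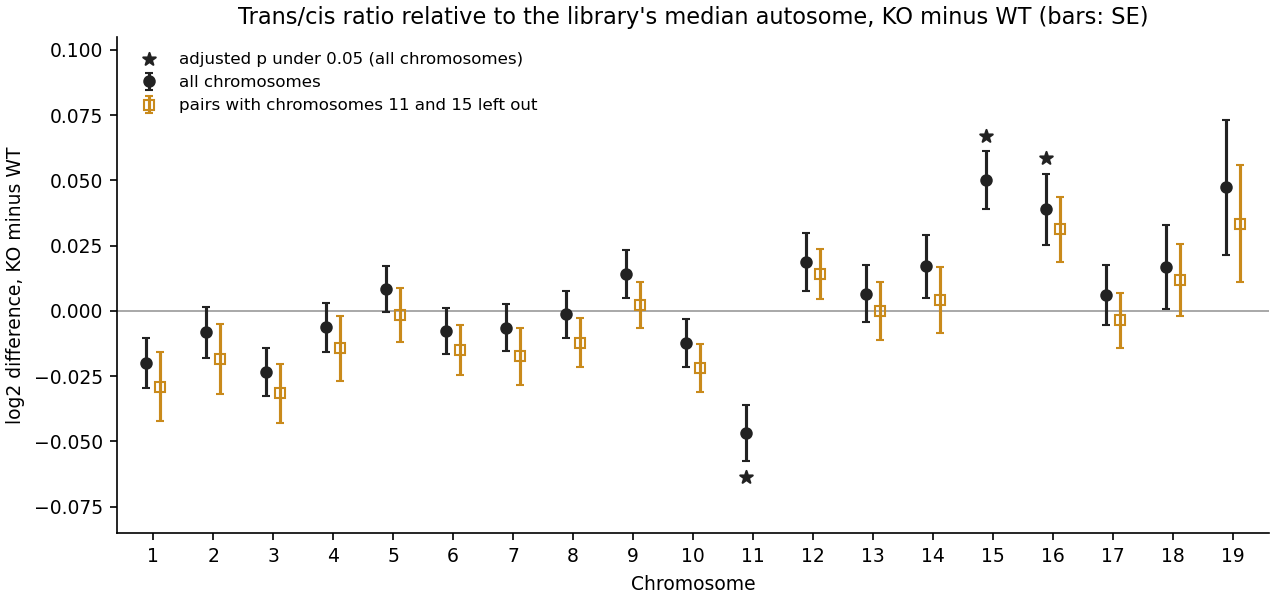
KO minus WT difference of the log2 trans/cis ratio relative to the median autosome (vertical axis, log2, bars show the SE of the edgeR fit), for all chromosomes and without chromosomes 11 and 15. Chromosome 11 lies at -0.047 and chromosome 15 at 0.050, and without them the values run from -0.032 on chromosome 3 to 0.033 on chromosome 19.

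Most autosomes had the same preferred partners in both genotypes. Preference was measured as log2 of observed trans pairs over the number expected from the trans totals of both chromosomes in the same library, so that a gained chromosome does not by itself raise a preference. The preferences over all autosome pairs had an SD of 0.0507, 0.0424, 0.0378 and 0.0363 in WT and 0.0441 and 0.0501 in KO. These ranges overlapped (exact permutation test, two-sided, p = 0.4). By the median absolute deviation, which gives less weight to extreme pairs, they did not: it was 0.0225, 0.0230, 0.0186 and 0.0225 in WT and 0.0245 and 0.0258 in KO (exact permutation test, two-sided, p = 0.133, the smallest possible). Pair profiles of the KO libraries correlated with each other at r = 0.992 and with WT libraries at 0.859 to 0.947. WT libraries correlated among themselves at 0.862 to 0.954. KO libraries thus resembled WT libraries about as much as WT libraries resembled each other, as a description across pairs that share chromosomes.

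Of the 19 autosomes, 12 had the same most preferred partner in both genotypes and 13 the same least preferred one. The strongest preference in both was that of chromosomes 18 and 19, at 0.191, 0.142, 0.132 and 0.112 in WT and 0.168 and 0.211 in KO. The KO values lay within or above the WT range, and the fitted difference of 0.045 ± 0.020 (SE) did not pass (edgeR adjusted p = 0.209). Chromosomes 16 and 19 came next in WT, at 0.134 ± 0.055 (SD, n = 4), and stood at 0.150 ± 0.017 (SD, n = 2) in KO. Chromosome 12 preferred chromosome 19 in WT (0.109 ± 0.065) and chromosome 18 in KO (0.141 ± 0.016), but both of its pairs overlapped between genotypes. Chromosomes 12, 15, 16, 18 and 19 carry the ribosomal RNA gene arrays, the nucleolar organisers, in many mouse strains. Their 10 mutual pairs had a median preference of 0.097 in WT and 0.114 in KO, and in 0 of 10 did both KO libraries lie outside the WT range on the same side. Over all autosome pairs 28.1% did, and edgeR called 0% of pairs. Not every pair of the list was preferred: chromosomes 12 and 15 stood at -0.072 ± 0.017 in WT and -0.078 ± 0.0081 in KO (SD, n = 4 and n = 2).

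Other preferences were also present in both genotypes. The pair of the gained chromosomes, 11 and 15, stood at 0.113, 0.093, 0.106 and 0.093 in WT and 0.095 and 0.103 in KO, which overlapped. Chromosomes 8 and 14 stood at 0.087 ± 0.018 in WT and 0.095 ± 0.00031 in KO, and chromosomes 1 and 3 at 0.058 ± 0.0068 and 0.054 ± 0.0068 (SD, n = 4 and n = 2). The lowest mean belonged to chromosomes 1 and 19 in WT and to chromosomes 2 and 19 in KO. Chromosomes 1 and 19 stood at -0.110, -0.096, -0.094 and -0.098 in WT and -0.101 and -0.104 in KO. Chromosomes 11 and 12 stood at -0.087 ± 0.024 in WT and -0.109 ± 0.0080 in KO. All of these pairs overlapped between genotypes except that of 2 and 19.

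**Figure D3:**
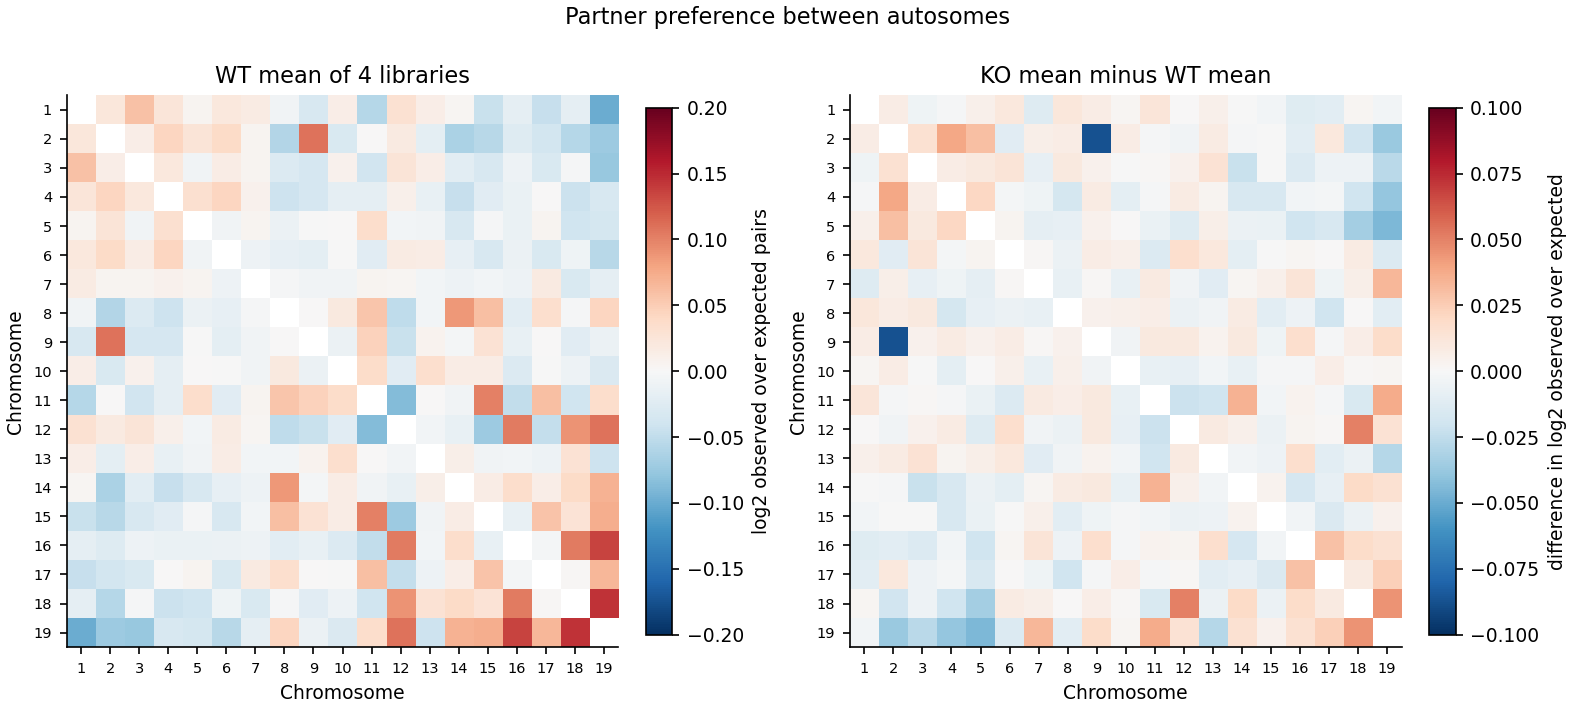
Mean log2 observed over expected trans pairs for each pair of autosomes (both axes, chromosome numbers) in WT, and the difference of the means, KO minus WT, with colour scales in log2. Chromosomes 12, 16, 18 and 19 prefer each other in WT, and the largest absolute difference, 0.087, is that of chromosomes 2 and 9.

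Pair by pair, the differences were small. The median absolute difference over the autosome pairs was 0.0076 (log2), close to the median SD among WT libraries of 0.0081. EdgeR called 0 of 190 pairs of chromosomes 1 to 19 and X (0%), with 44 at an unadjusted p under 0.05 and a lowest adjusted p of 0.0575. With the share of short pairs as a covariate it also called 0. Then 9 of 190 pairs were at an unadjusted p under 0.05, and the lowest edgeR adjusted p was 0.590. Limma called 0, with 37 at an unadjusted p under 0.05, and DESeq2 called 13. The count of calls also changed with the libraries used. EdgeR called 13 pairs without WT 1 and 7 without WT 4, but 0 without WT 2 and 0 without WT 3. It called 30 without both WT 1 and WT 2. Both KO libraries lay above the WT range in 19 autosome pairs, 11.1% of all, and below it in 29, 16.96% of all. Of the 19 autosomes, chromosome 19 had the largest median absolute difference, 0.021 over its 18 partners, with 9 of them at an unadjusted p under 0.05. Chromosome 15 had the smallest median, 0.0043.

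Since no pair passed, the pairs named here were chosen after their values were seen: the 5 largest positive and 5 largest negative differences among autosome pairs whose KO libraries both lay outside the WT range and whose unadjusted p was under 0.05. They are described by their values. The lowest adjusted p belonged to chromosomes 5 and 18 and to chromosomes 4 and 19. The pair of 5 and 18 stood at -0.052, -0.035, -0.031 and -0.040 in WT and -0.070 and -0.076 in KO, a difference of -0.034 ± 0.0066 (SE; edgeR adjusted p = 0.0575). The pair of 4 and 19 stood at -0.039, -0.044, -0.020 and -0.026 in WT and -0.071 and -0.072 in KO, a difference of -0.039 ± 0.0077 (SE; edgeR adjusted p = 0.0575). Both pairs were below expectation in every library, and lower in KO. Chromosomes 2 and 19 (-0.037 ± 0.010) and 5 and 19 (-0.045 ± 0.012) had differences in the same direction.

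The largest difference was that of chromosomes 2 and 9, -0.088 ± 0.031 (SE; edgeR adjusted p = 0.162). The WT libraries stood at 0.118, 0.081, 0.190 and 0.046 and the KO libraries at 0.022 and 0.022. The WT libraries thus differed among themselves by more than the lowest of them differed from KO. Chromosome 9 was the most preferred partner of chromosome 2 in WT, and chromosome 4 was in KO (0.081 ± 0.0052).

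Pairs that were higher in KO included long chromosomes with each other. Chromosomes 2 and 4 stood at 0.027, 0.034, 0.043 and 0.065 in WT and 0.077 and 0.084 in KO, a difference of 0.038 ± 0.0097 (SE; edgeR adjusted p = 0.090). Chromosomes 2 and 5 stood at 0.021, 0.030, 0.016 and 0.036 in WT and 0.052 and 0.061 in KO, a difference of 0.030 ± 0.0066 (SE; edgeR adjusted p = 0.074). Of the 10 pairs among the 5 longest autosomes, 5 lay above the WT range and 0 below, where 11.1% of all autosome pairs lay above and 16.96% below. The other named pairs joined the gene-dense chromosomes 7 and 11 to chromosomes 14 and 19. Chromosomes 11 and 19 stood at 0.0026, 0.052, 0.048 and 0.039 in WT and 0.070 and 0.076 in KO. Chromosomes 11 and 14 differed by 0.034 ± 0.0096 and chromosomes 7 and 19 by 0.033 ± 0.011 (SE). Among the 10 pairs of the 5 autosomes with most protein-coding genes per Mb (7, 9, 11, 17 and 19), 4 lay above the WT range and 0 below. Without chromosome 11 these were 2 and 0 of 6 pairs. Among the 10 pairs of the 5 with fewest (1, 3, 12, 16 and 18), 0 lay above and 1 below. Among the 10 pairs of the 5 shortest, 2 lay above and 1 below. Both lists were near the shares over all autosome pairs. Without chromosome 15 the shortest had 2 above and 0 below of 6 pairs, the same counts as the gene-dense list without chromosome 11. No difference between these lists was tested.

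Without chromosomes 11 and 15, edgeR called 3 of 153 pairs (1.96%), all lower in KO. Chromosomes 5 and 18 fell by 0.037 ± 0.0063 (SE; edgeR adjusted p = 0.0338), chromosomes 4 and 19 by 0.035 ± 0.0073 and chromosomes 4 and 18 by 0.025 ± 0.0051 (SE; edgeR adjusted p = 0.0475 for both). Each joins a long chromosome to a short one.

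**Figure D4:**
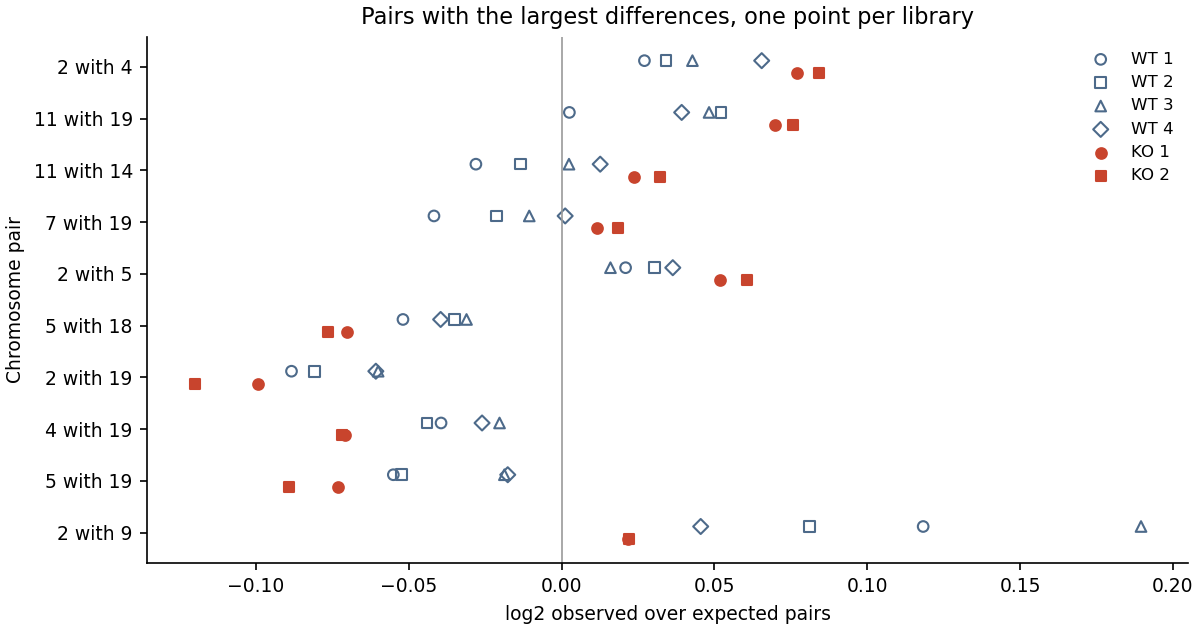
Log2 observed over expected trans pairs (horizontal axis) of the 10 autosome pairs chosen for their differences (vertical axis), with a point for each WT and KO library. The KO points lie on 1 side of all WT points in every pair, as the choice requires, and the WT points of chromosomes 2 and 9 spread from 0.046 to 0.190.

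Within chromosomes, no distance bin passed the test between genotypes. Cis pairs of at least 1 kb were counted in 22 distance bins with the 4 strand orientations summed, as percent of all such pairs. EdgeR's quasi-likelihood test called 0 of 22 bins (0%), with 0 at an unadjusted p under 0.05, and limma and DESeq2 also called 0. These bins are not split by chromosome, so P(s) could not be repeated without chromosomes 11 and 15. The 4 orientations lay within 0.203 percentage points of 25% from 10 kb to 178 Mb in every WT and KO library.

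The bin with the largest negative difference was that from 1.00 to 1.78 Mb, with 6.47%, 6.29%, 5.65% and 5.00% of pairs in WT and 4.53% and 5.24% in KO. KO 2 lay between WT 4 and WT 3, so the groups overlapped, and the log2 difference was -0.26 ± 0.13 (SE; edgeR adjusted p = 0.661). The bin with the largest positive difference was that from 17.8 to 31.6 Mb, with 4.59%, 5.25%, 5.18% and 5.04% in WT and 5.15% and 5.93% in KO, a log2 difference of 0.14 ± 0.11 (SE; edgeR adjusted p = 0.661). Again the groups overlapped. Both differences moved with single KO libraries: without KO 1 they were -0.16 and 0.24, and without KO 2 -0.37 and 0.039. The sole bin in which the groups did not overlap was that from 56.2 to 100 kb, with 6.53%, 6.60%, 6.69% and 6.53% in WT and 6.86% and 6.76% in KO. Its log2 difference was 0.049 ± 0.039 (SE; edgeR adjusted p = 0.661).

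Libraries of the same group differed widely. From 1 to 10 kb, KO 1 had 14.7% of pairs and KO 2 10.1%, and WT libraries ran from 8.95% to 14.8%. From 1 to 10 Mb, the shares were 18.7%, 18.3%, 16.5% and 15.3% in WT and 14.2% and 16.1% in KO. The shares in the classes 1 to 10 kb, 10 to 100 kb, 100 kb to 1 Mb, 1 to 10 Mb and 10 Mb and over all overlapped between genotypes (exact permutation tests, two-sided, adjusted p = 0.667 to 0.933).

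**Figure D5:**
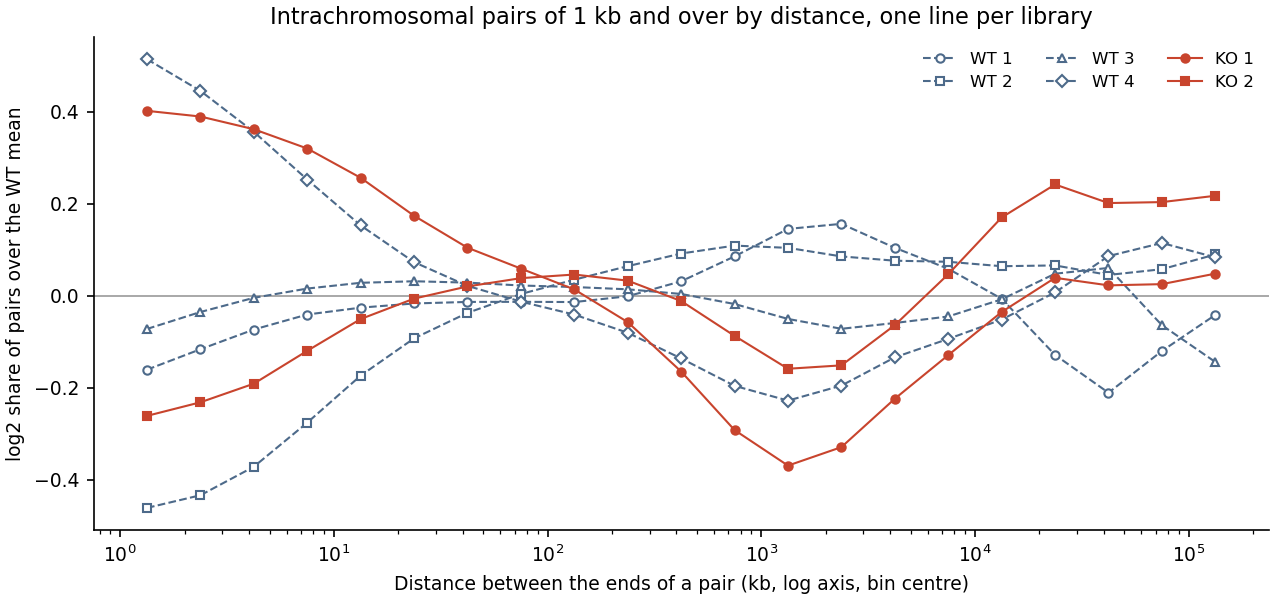
Share of cis pairs of at least 1 kb in each distance bin, as log2 ratio to the WT mean (vertical axis), against distance (horizontal axis, log scale). Each WT and KO library has a line, and the lines of the groups cross at most distances.

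The decay slope is the exponent of P(s), fitted by least squares to the log of pair density (bin count over bin width) and the log of distance. It was -1.24, -1.26, -1.28 and -1.27 from 100 kb to 10 Mb in WT and -1.30 and -1.27 in KO. The groups overlapped, with a difference of -0.024 (pooled SD 0.016; exact permutation test, two-sided, p = 0.267). By decade, the slopes from 10 to 100 kb, from 100 kb to 1 Mb and from 10 to 100 Mb overlapped too. From 1 to 10 Mb the slope was -1.34, -1.31, -1.30 and -1.24 in WT and -1.20 and -1.22 in KO, so that both KO libraries decayed less steeply than every WT library. The difference was 0.090 (pooled SD 0.035), with the smallest p possible, 0.133, by exact permutation test, and 0.533 after adjustment over the 4 decades.

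The shape of the distribution had a peak below 1 Mb and another at 17.8 to 31.6 Mb in all 6 libraries. The first peak lay at 178 to 316 kb in WT 4 and both KO libraries and at 316 to 562 kb in WT 1 to WT 3. The trough between the peaks lay at 3.16 to 5.62 Mb in WT 4, KO 1 and KO 2 and at 5.62 to 10 Mb in WT 1 to WT 3. WT 4 thus sat with the KO libraries in both positions. Pairs at 17.8 to 31.6 Mb over those in the trough came to 1.26, 1.43, 1.53 and 1.55 in WT and 1.69 and 1.74 in KO. Pairs at 1.00 to 1.78 Mb over those at 17.8 to 31.6 Mb came to 1.41, 1.20, 1.09 and 0.991 in WT and 0.879 and 0.884 in KO. In both ratios the KO libraries lay outside the WT range, on the side of WT 4. The ratios were chosen after the distributions were seen and are given as a description.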

How the data were processed

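The authors deposited raw counts of read pairs per library, after removal of duplicates, with 409 statistics per library that include chromosome pairs and distance bins in 4 orientations. The build was mm9, per the submitters' processing notes, and the aligner and its filters are not given in the sources used here. Whether the counts pool the test and deep sequencing runs is not stated. A further 3 columns of summed libraries were not used. The members, lists and tests were chosen with earlier results of these data known.

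From the deposited counts, chromosomes, chromosome pairs and distance bins (mean count of at least 10) were tested with edgeR 4.0.16 (glmQLFit) in R 4.3.3. All 8 libraries, the 2 of RING1B I53A included, entered each fit with a mean per genotype, and the threshold was a Benjamini-Hochberg adjusted p of 0.05. For chromosomes the offset was the log cis count plus the library's median log trans/cis ratio. For pairs it was the log expected count from iterative proportional fitting of the trans totals with an empty diagonal, and for bins the log of cis pairs of at least 1 kb. The dispersion that edgeR estimated for chromosomes and pairs fell to 9.77e-05. At that value its deviance failed, with a negative F in 1 of 20 chromosomes and 11 of 190 pairs, so it was fixed at 0.001, a choice made after the data were seen. The scripts were tested on simulated data. Single values were tested by exact permutation (scipy 1.17.1). Limma 3.58.1 and DESeq2 1.42.0 were alternatives.

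Named were chromosomes past the threshold with 11 and 15, each autosome's most and least preferred partners, pairs past the threshold outside the WT range (none passed, so the largest differences are given), the bins with the largest rise and fall, and the chromosome lists. The Wilson 95% interval around an interchromosomal share reached no further than 0.00957 percentage points, which covers counting error only. Replicates differed beyond sampling noise, with a chi-square per degree of freedom of at least 11.0 within groups.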

Additional observations from a re-analysis of the deposited data

How the results depend on the processing

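The interchromosomal share, the median log2 trans/cis ratio and the spread of partner preference kept their direction under every alternative run. Without each library in turn, the difference was 1.75 to 2.63 points for the share, 0.16 to 0.22 for the log2 ratio, 0.0023 to 0.0083 for the spread and -0.034 to -0.013 for the decay slope from 100 kb to 10 Mb. With all unique pairs as denominator the share differed by 5.15 points, and with all cis pairs the log2 ratio differed by 0.61. The decay slope reversed when taken from 1 to 10 Mb, at 0.090. The count of chromosomes called, 3, became 0 with limma and 0 without chromosomes 11 and 15, 5 with high rescued share alone, 1 with the share of short pairs as a covariate and 5 with the dispersion estimated by edgeR. It was 2 to 3 without each library in turn. The count of pairs called, 0, became 13 with DESeq2, 12 with high rescued share alone, 4 with the rescued share as a covariate, 3 without chromosomes 11 and 15, 3 with autosomes alone, and 37 with the product of totals as the expected count. It was 30 without WT 1 and WT 2, 69 with the estimated dispersion, and 0 to 13 without each library in turn. The causes were not tested. The estimated dispersion gave a negative F in 1 of 20 chromosomes and 11 of 190 pairs, and its part in the changed counts was not tested either. Leaving out WT 1 and WT 2, the available-base slope and the dispersion settings were chosen after seeing the data. With a KO library left out, the single values have no test, and the fits assume that the lone library varies like the other groups.

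With WT and KO libraries alone, without RING1B I53A, 3 chromosomes, 0 pairs and 0 bins were called.

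KO shares only the replicate numbers 1 and 2 with WT. Same-numbered deviations correlated at 0.037 and -0.25 for trans/cis, -0.39 and 0.11 for pairs and -0.33 and 0.96 for bins. The deviations of the 2 KO libraries mirror each other, so these correlations cannot decide whether a shared number marks a pairing. With the replicate block, 8 chromosomes, 16 pairs and 12 bins were called. The differences averaged over both numbers were 2.13 points for the share, 0.18 for the log2 ratio, 0.00054 for the spread and -0.037 for the slope.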
